A study of Equisetum hyemale and Pteris vittata and Marchantia polymorpha with 22 samples.

Results

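Aquaporins were analysed in 5 land plants as the features whose *A. thaliana* best hit is described as an intrinsic protein. A total of 20 *A. thaliana* genes met this rule, and they were the best hits of 116 of the 180885 features in the 5 tables. Of these, 15 were transcripts of the liverwort *Marchantia polymorpha*, 19 loci of the moss *Physcomitrium patens*, 16 loci of the lycophyte *Selaginella moellendorffii*, 38 assembled genes of the horsetail *Equisetum hyemale* and 28 assembled transcripts of the fern *Pteris vittata*. Plants were kept in darkness for 8 h at 1% O2 (hypoxia) or at 21% O2 (air), and poly(A) mRNA was sequenced. There were 3 hypoxia and 3 air libraries of *E. hyemale*, and 2 of each condition for every other species. Per the study's methods, each library came from 3 pooled thalli, plantlets or young shoots. The horsetail was grown in soil, the moss on Knop medium and the other species on MS medium, so these conditions cannot be told apart from the species. The methods do not say which RNA extraction kit each species had. Estimated depth was 16.3 to 28.9 M reads per library, and values are in CPM (read counts scaled to a common library total), which are not corrected for transcript length. Each table was normalized by itself, so levels were compared only between the conditions of a species. The labels call all samples shoot, and best hits to light-harvesting proteins and the small Rubisco subunit held 1.38 to 3.89% of the CPM of a library.

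Aquaporins are channels that let water and small uncharged solutes cross membranes. The plasma membrane intrinsic proteins (PIPs) carry much of the water flow between cells and fall into the groups PIP1 and PIP2. Their pore is known to close when the cytosol acidifies, as it does in flowering plants without oxygen. Tonoplast intrinsic proteins (TIPs) lie in the vacuolar membrane, the NOD26-like proteins (NIPs) conduct solutes such as glycerol and boric acid, and the small basic proteins (SIPs) are found in the endoplasmic reticulum of *A. thaliana*. A best hit gives the closest *A. thaliana* gene and not an ortholog, and mosses and lycophytes also have aquaporin types that *A. thaliana* lacks, so a subfamily here is that of the best hit. Outside the fern, no feature had as its best hit a gene described as NIP2, the group that holds the lactic acid channel induced by low oxygen in *A. thaliana*. Fern best hits carry no descriptions of their own, so a NIP2 hit there, or any hit that no other table describes, would have been missed.

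The subfamilies were unevenly spread over the species. PIP hits made up 56 of the 116 members, with 24 in PIP1 and 32 in PIP2, NIP hits 28, TIP hits 23 and SIP hits 9. Among the NIPs, *S. moellendorffii* had 7 loci that hit NIP6;1 (AT1G80760), and *P. patens* had 3 that hit NIP5;1 (AT4G10380), both boric acid channels in *A. thaliana*. The 1 NIP feature of *M. polymorpha* hit NIP4;1. All 4 TIP loci of *P. patens* hit TIP1;3, whereas both TIP loci of *S. moellendorffii* hit TIP2;3. Hits to TIP3;2, a seed vacuole protein in *A. thaliana*, were found in *E. hyemale* (2) and *P. vittata* (3).

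No aquaporin passed the test for hypoxia against air in any species. The test was limma on log2(CPM + 1) over all features of a table, with a call at a Benjamini-Hochberg adjusted p of 0.01 or less and an absolute log2 fold change (log2FC) above 1. In *M. polymorpha*, 0 of 15 members were called, where 1.47% of all features were called higher and 1.35% lower. In *P. patens*, 0 of 19 were called, against 0.0700% higher and 0.0140% lower of all features. In *E. hyemale*, 0 of 38 were called, against 0.673% higher and 0.0452% lower. In *S. moellendorffii* (0 of 16) and *P. vittata* (0 of 28), limma called 0% of all features in either direction. At an unadjusted p under 0.05 by limma, 15 of the 116 members were higher and 8 lower. Among all features, the shares by species were 5.45% (moss) to 15.4% (liverwort) higher and 4.23% (fern) to 15.8% (liverwort) lower. At an adjusted p under 0.05 and any size of change, 1 member was lower, a TIP of the liverwort, and 0 were higher. Among all features of the liverwort table, 8.42% were higher and 8.34% lower by that rule. The shares were 0.205% and 0.0513% for the moss, 1.30% and 0.405% for the horsetail, and 0% in both directions for the lycophyte and the fern. Over all 116 members the median log2FC was 0.02, with values between -0.73 and 2.61.

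**Figure D1:**
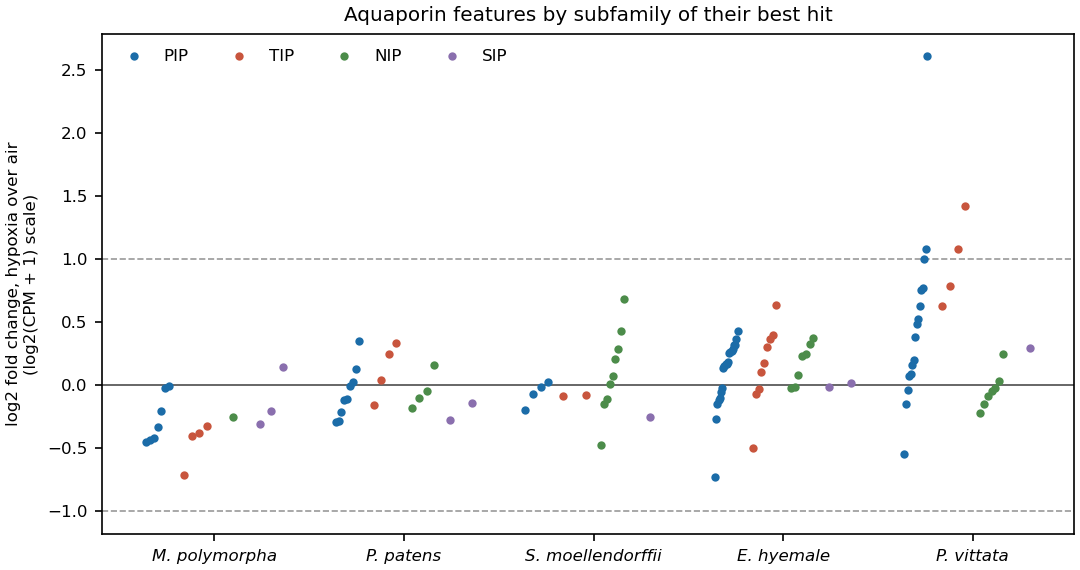
Log2FC of hypoxia over air, on the log2(CPM + 1) scale, for the 116 aquaporin features, by species and by the subfamily of the best hit (1 point per feature, spread sideways by rank). Dashed lines mark a log2FC of 1 and -1, and 4 transcripts of the fern, none of them called, lie above the upper line, the highest at 2.61.

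The members with the most reads were measured precisely enough to bound their change. A mean of at least 100 CPM was reached by 34 members, of which 22 were PIPs, 8 TIPs, 3 NIPs and 1 a SIP. Their log2FC lay between -0.47 and 0.43. No bound of their 95% intervals, each for a single feature and not adjusted for the number of features, lay further from 0 than 0.95. Within species, these intervals spanned -0.72 to 0.44 for the 5 liverwort members, -0.58 to 0.61 for the 8 of the moss, -0.95 to 0.59 for the 7 of the lycophyte, -0.27 to 0.71 for the 10 of the horsetail and -0.44 to 0.53 for the 4 of the fern. A 2-fold change, which is 1 log2 unit, was thus outside the interval of each of these 34 members. It was inside that of lycophyte locus 27726, a PIP2;3 hit outside the rule that is described below (mean 113.8 CPM, interval 0.437 to 1.309). The horsetail PIP2;3 hit Ehym_DN108990_c3_g2, at a mean of 120.7 CPM, had an interval of 0.018 to 0.668. At the other end, 12 members had a mean below 1 CPM, 8 of them in *E. hyemale*.

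**Figure D2:**
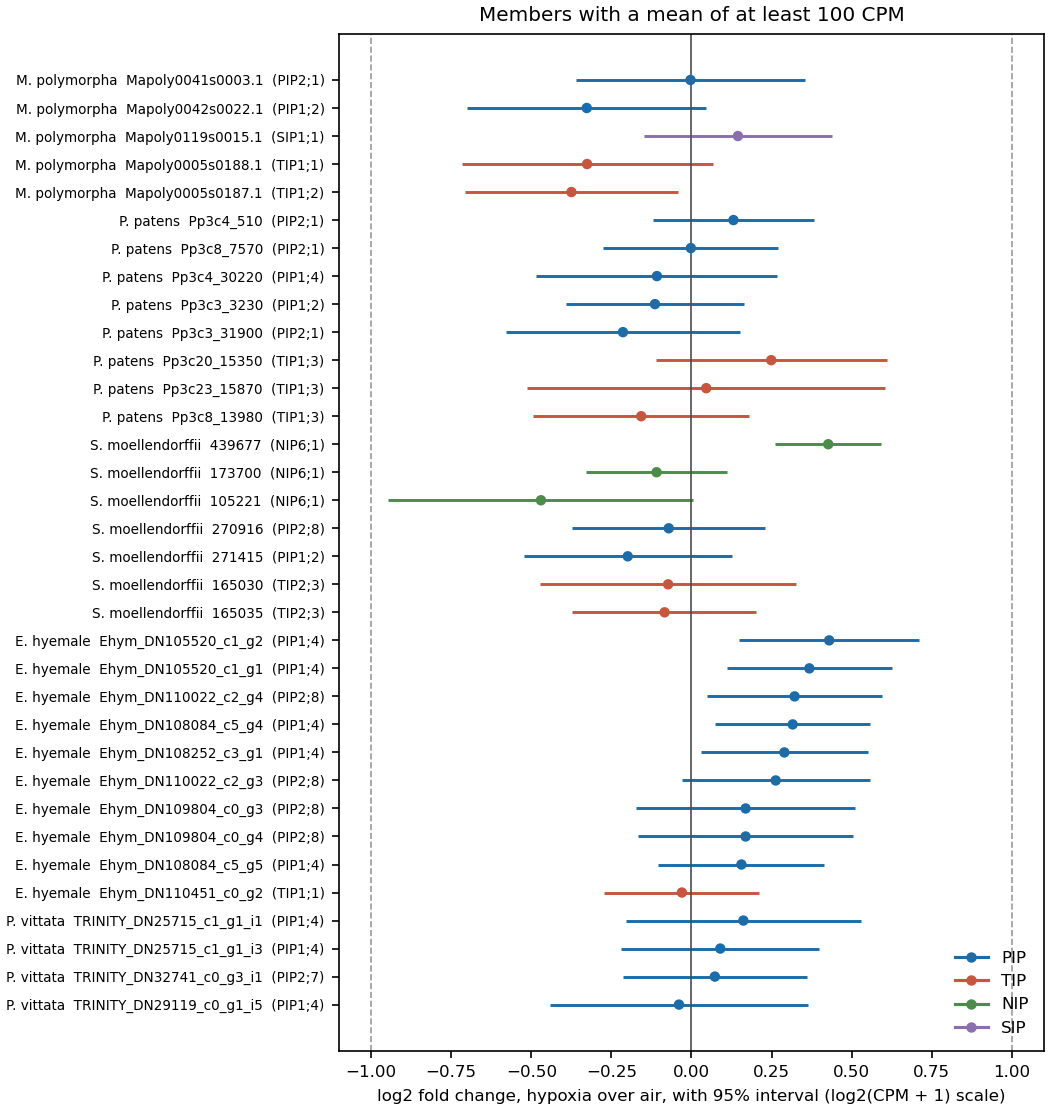
Log2FC of hypoxia over air with its 95% interval (limma, log2(CPM + 1) scale) for the 34 members with a mean of at least 100 CPM, by species, coloured by subfamily, with the best hit in brackets. All intervals lie between the dashed lines at -1 and 1, and the points of the *E. hyemale* PIPs lie to the right of 0.

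In *M. polymorpha*, 14 of 15 members had a log2FC below 0, with a median of -0.33, where the median of all its features was near 0 and 49.7% of the 10945 features with a mean of at least 5 CPM lay above 0. The hypoxia libraries lay below both air libraries for 11 members and above them for 0, against 30.4% and 30.1% of all features. At an unadjusted p under 0.05, 3 were lower and 0 higher, against 15.8% and 15.4% of all features. The feature with the smallest adjusted p was Mapoly0004s0233.1, which hits TIP1;3, a vacuolar channel of pollen in *A. thaliana*. It had 1.115 and 0.9606 CPM under hypoxia, against 2.124 and 2.551 CPM in air. Both hypoxia values were below both air values, at a log2FC of -0.71 ± 0.18 (SE, adjusted p = 0.031 by limma), which missed the call on both thresholds. Its adjusted p ranged from 0.017 to 0.171 over the alternatives, the highest without air replicate 2, and its log2FC was -1.10 with a pseudocount of 0.1 CPM and -0.28 with one of 5 CPM.

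The TIPs of *M. polymorpha* with the most reads are Mapoly0005s0187.1 and Mapoly0005s0188.1, which have consecutive locus numbers. Mapoly0005s0188.1, a hit to TIP1;1, the vacuolar water channel known as gamma-TIP, had 1608 and 1389 CPM under hypoxia, against 2085 and 1683 CPM in air (log2FC -0.33 ± 0.17, adjusted p = 0.238). Mapoly0005s0187.1, a hit to TIP1;2, had 1262 and 1206 CPM under hypoxia, against 1700 and 1507 CPM in air (log2FC -0.38 ± 0.145, adjusted p = 0.118). In both, the hypoxia libraries lay below the air libraries. Reads of similar transcripts can be split between them by the pseudo-alignment, and how similar these neighbours are was not examined. Their sum with the other 2 TIPs was also lower, at 2871 and 2597 summed CPM under hypoxia against 3789 and 3193 in air. Mapoly0151s0013.1, a TIP2;3 hit, had 0.8106 and 0.9151 CPM under hypoxia, against 1.966 and 1.029 CPM in air (log2FC -0.40 ± 0.225, adjusted p = 0.274).

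Among the PIPs of *M. polymorpha*, 1 feature held nearly all reads of each group, with 99.3% of the summed PIP1 CPM in Mapoly0042s0022.1 and 99.8% of the PIP2 CPM in Mapoly0041s0003.1. The PIP1 feature had 2175 and 1923 CPM under hypoxia, against 2598 and 2535 CPM in air (log2FC -0.33 ± 0.16, adjusted p = 0.214). Its groups did not overlap, whereas those of the PIP2 feature did, with 2094 and 2153 CPM under hypoxia and 2201 and 2057 CPM in air. The NIP feature Mapoly0008s0101.1 had 32.54 and 26.21 CPM under hypoxia, against 34.9 and 34.94 CPM in air (log2FC -0.25 ± 0.13, adjusted p = 0.219). The only member above 0 was the SIP Mapoly0119s0015.1, with 128.8 and 112.8 CPM under hypoxia and 120.9 and 98.02 CPM in air, which overlap.

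In *P. patens*, the members scattered around 0, with 7 above and 12 below and a median of -0.10. The markers of green tissue had 22530 to 24930 summed CPM under hypoxia against 28890 to 29030 in air, and their part in the moss values was not tested. The libraries were separate for 3 members that were higher and 3 that were lower, against 20.5% and 20.9% of all features. At an unadjusted p under 0.05, 2 were higher and 1 lower, against 5.45% and 5.46%. The TIP locus Pp3c23_15870 held 79.9% of the summed TIP CPM, with 5693 and 5004 CPM under hypoxia and 4676 and 5717 CPM in air. Its air values enclose the hypoxia values, and its log2FC was 0.05 ± 0.24. The other TIP1;3 hits included Pp3c1_100, with 85.57 and 81.06 CPM under hypoxia against 66.53 and 65.03 CPM in air, the smallest adjusted p among the moss members (log2FC 0.34 ± 0.09, adjusted p = 0.247). Pp3c20_15350 had 821.4 and 877.3 CPM under hypoxia, against 636.9 and 800.6 CPM in air (log2FC 0.25 ± 0.15, adjusted p = 0.63). The remaining TIP1;3 hit, Pp3c8_13980, had 451.9 and 425.8 CPM under hypoxia and 434.4 and 551 CPM in air, which overlap (log2FC -0.16 ± 0.14). Thus 2 TIP loci were higher without overlap, while the locus with most of the reads was not.

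The moss PIPs differed in sign among close relatives. Of the 4 loci that hit PIP2;1, a main water channel of *A. thaliana* leaves and roots, Pp3c12_22530 had 14 and 13.86 CPM under hypoxia against 17.74 and 16.76 CPM in air (log2FC -0.29 ± 0.11, adjusted p = 0.386). Pp3c3_31900 had 1264 and 1100 CPM under hypoxia, against 1302 and 1436 CPM in air (log2FC -0.21 ± 0.155, adjusted p = 0.701). Both were lower without overlap, and the other pair of PIP2;1 hits overlapped between conditions. Pp3c10_21310, a PIP2;4 hit, had 60.67 and 50.84 CPM under hypoxia, above its 46.59 and 40.09 CPM in air (log2FC 0.35 ± 0.12, adjusted p = 0.365). The PIP1 locus with the most reads, Pp3c4_30220, had 1709 and 1532 CPM under hypoxia and 1795 and 1695 CPM in air (log2FC -0.11 ± 0.16).

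The 3 moss loci that hit the boric acid channel NIP5;1 had overlapping libraries. Pp3c15_12660 had 12.48 and 14.37 CPM under hypoxia and 19.92 and 11.66 CPM in air, and Pp3c13_23650 had 8.357 and 9.311 CPM under hypoxia and 8.664 and 10.52 CPM in air. For Pp3c4_14920, the values were 12.26 and 10.91 CPM under hypoxia and 11.06 and 9.454 CPM in air. Of the SIPs, Pp3c21_9770 was lower without overlap, at 15.8 and 12.71 CPM under hypoxia against 17.64 and 17.11 CPM in air (log2FC -0.28 ± 0.13, adjusted p = 0.514). Pp3c18_13960 had 21.1 and 20.31 CPM under hypoxia and 21.04 and 24.88 CPM in air.

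In *S. moellendorffii*, 9 of the 16 members were NIPs, with log2FC values between -0.47 and 0.68. The highest value was that of 92918, a NIP4;2 hit near the floor of 3 reads, with 0.6639 and 0.8299 CPM under hypoxia against 0.1847 and 0 CPM in air. Libraries were separate for 3 members that were higher, all of them NIPs, and for 3 that were lower, against 26.0% and 23.5% of all features. With an unadjusted p under 0.05, 2 loci were higher and 1 was lower, against 10.4% and 5.42%. Of the 7 NIP6;1 hits, 439677 had 207.5 and 203.1 CPM under hypoxia, against 151.4 and 153.6 CPM in air. Its replicates lay close together, both hypoxia values were above both air values, and its log2FC of 0.43 ± 0.07 had the smallest adjusted p among the lycophyte members (adjusted p = 0.103 by limma). The NIP6;1 hit with the most reads, 105221, had 284.6 and 266.7 CPM under hypoxia, against 468.2 and 311.7 CPM in air (log2FC -0.47 ± 0.19, adjusted p = 0.32). Its value rested on the air library without a number, since the log2FC was -0.18 without that library (adjusted p = 0.523) and -0.76 without air replicate 3 (adjusted p = 0.017). These loci thus lay on opposite sides of 0, and their summed NIP level overlapped between conditions, at 763 and 763 summed CPM under hypoxia and 897 and 747 in air. The air library with 897 summed CPM is the one whose replicate number matches no label.

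The NIP5;1 hit 99369 had 70.38 and 76.11 CPM under hypoxia, against 53.67 and 66.81 CPM in air (log2FC 0.285 ± 0.118, adjusted p = 0.327). The *S. moellendorffii* PIPs and TIPs with the most reads lay within or near the range of their replicates. The PIP2;8 hit 270916 had 1528 and 1690 CPM under hypoxia and 1726 and 1652 CPM in air. The TIP2;3 hits, named after an *A. thaliana* channel that also conducts ammonia, are 165030, with 2567 and 2721 CPM under hypoxia and 3070 and 2518 CPM in air, and 165035, with 1275 and 1363 CPM under hypoxia and 1465 and 1333 CPM in air. The air values of both enclose their hypoxia values or overlap with them. The PIP1;2 hit 271415 was lower without overlap, at 1373 and 1607 CPM under hypoxia against 1735 and 1676 CPM in air (log2FC -0.20 ± 0.13, adjusted p = 0.51). So was the SIP 115406, at 47.57 and 50.32 CPM against 60.76 and 56.22 CPM in air (log2FC -0.25 ± 0.08, adjusted p = 0.23).

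A further *S. moellendorffii* locus fell outside the rule because its best hit, PIP2;3 (AT2G37180), is described as aquaporin-like. Locus 27726 had 168.2 and 126.9 CPM under hypoxia, against 69.79 and 90.2 CPM in air, with no overlap (log2FC 0.87 ± 0.175, adjusted p = 0.136). It was named after its values were seen. The other PIP2;3 hits were 3 genes of *E. hyemale* and 1 transcript of *P. vittata*, none of which was called.

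**Figure D3:**
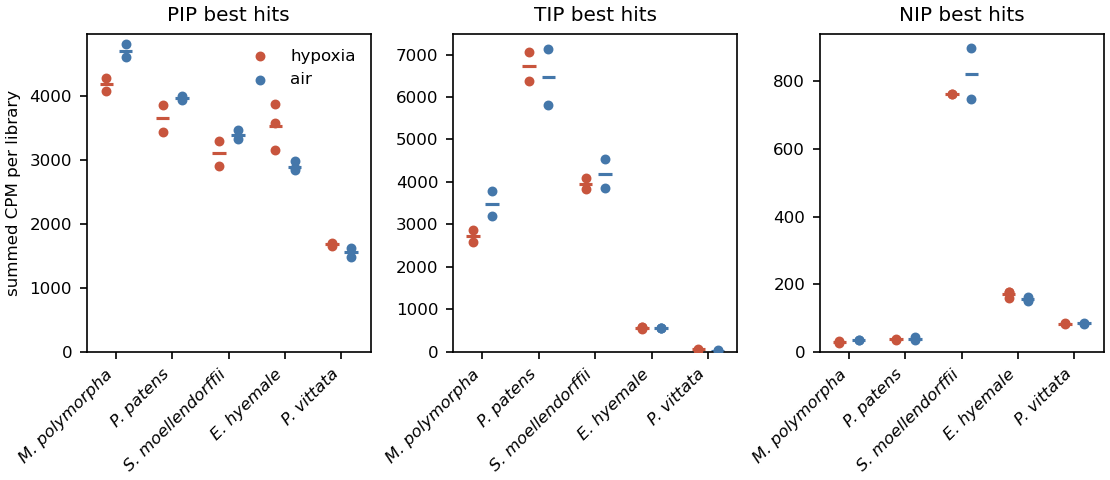
Summed CPM of the members of the PIP, TIP and NIP subfamilies in each library (points) and the mean per condition (horizontal lines), hypoxia left of air, for the 5 species. Each species was normalized by itself, so heights compare conditions and not species, and PIP sums lie below air in the liverwort, moss and lycophyte and above it in the horsetail and fern. Locus 27726, a PIP2;3 hit outside the rule, is not in the lycophyte PIP sum, which overlaps between conditions when it is added. Fern hits that no table describes are not in the fern sums.

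In *E. hyemale*, 25 of 38 members had a log2FC above 0, and the median was 0.17, against -0.01 for the 24992 features with a mean of at least 5 CPM. The libraries were separate for 10 members that were higher and 2 that were lower, against 9.66% and 9.38% of all features. At an unadjusted p under 0.05, 7 were higher and 2 lower, against 6.71% and 5.99%. The summed PIP level was 3168, 3581 and 3886 CPM under hypoxia, against 2988, 2876 and 2844 CPM in air, so each hypoxia library exceeded each air library, by 1.22-fold on average. PIP1 sums were separate as well, at 1897, 2098 and 2172 CPM under hypoxia against 1664, 1622 and 1663 CPM in air, whereas PIP2 sums overlapped. The markers of green tissue moved the other way, with 13760 to 15330 summed CPM under hypoxia against 17360 to 18240 in air, and their part in the PIP values was not tested.

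The PIP1 reads came nearly all from 6 genes that hit PIP1;4, an *A. thaliana* channel for water, CO2 and hydrogen peroxide. All 6 had a log2FC above 0, between 0.16 and 0.43, with adjusted p-values of 0.16 to 0.66, and in 5 the libraries did not overlap. They fall into 3 Trinity read clusters of 2 genes each, so reads could be shared between close copies and the 6 are not independent. The gene with the most reads, Ehym_DN108252_c3_g1, had 546.1, 620.8 and 659.4 CPM under hypoxia, against 488.4, 477.4 and 523.5 CPM in air (log2FC 0.29 ± 0.12, adjusted p = 0.329). The largest value of the group was that of Ehym_DN105520_c1_g2, with 376.4, 445.4 and 411.3 CPM under hypoxia against 329.7, 321.3 and 265.4 CPM in air (log2FC 0.43 ± 0.13, adjusted p = 0.159). Every hypoxia library was thus above every air library in both genes, although neither change reached 1 log2 unit.

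**Figure D4:**
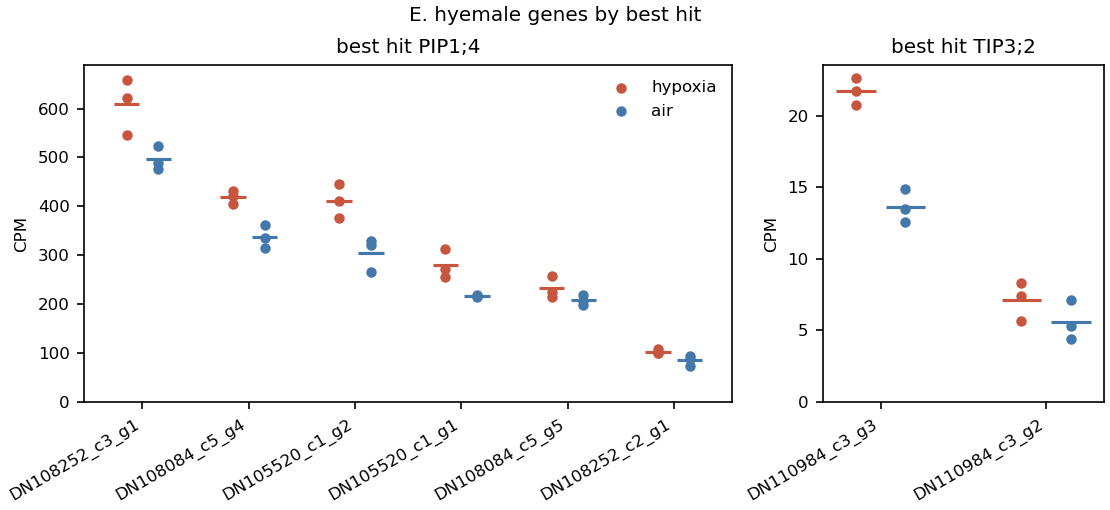
CPM in each *E. hyemale* library (points, n = 3 per condition, hypoxia left of air) and the mean (horizontal lines) for the 6 genes whose best hit is PIP1;4 and the 2 whose best hit is TIP3;2. Of the genes shown, Ehym_DN108084_c5_g5 and Ehym_DN110984_c3_g2 overlap between conditions and the others do not.

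Vacuolar aquaporins of *E. hyemale* did not share this pattern as a sum. The TIP1;1 hit Ehym_DN110451_c0_g2 held 92.2% of the summed TIP CPM, and it had 545, 536.3 and 480 CPM under hypoxia and 529.7, 530.8 and 531.5 CPM in air (log2FC -0.03 ± 0.11). Its air libraries were almost equal and its hypoxia libraries lay on both sides of them. Among the TIPs with fewer reads, the TIP3;2 hit Ehym_DN110984_c3_g3 had 20.78, 22.64 and 21.75 CPM under hypoxia, against 14.91, 13.47 and 12.59 CPM in air. This was the largest increase among the *E. hyemale* members, with no overlap (log2FC 0.63 ± 0.14, adjusted p = 0.063 by limma). Its adjusted p ranged over the alternatives from 0.015 with array weights to 0.277 without air replicate 4, and no alternative gave a log2FC above 1. Ehym_DN96315_c0_g1, a TIP1;2 hit, had 9.221, 10.03 and 10.03 CPM under hypoxia, against 6.788, 7.994 and 6.755 CPM in air (log2FC 0.40 ± 0.17, adjusted p = 0.372).

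The 2 *E. hyemale* genes that hit NIP5;1 come from 1 Trinity component. Ehym_DN104695_c0_g2 had 54.91, 55.83 and 54.72 CPM under hypoxia and 50.6, 53.82 and 52.13 CPM in air (log2FC 0.08 ± 0.11, 95% interval -0.17 to 0.33), so its hypoxia libraries lay just above its air libraries. Ehym_DN104695_c0_g1 had 32.6, 42.11 and 42.78 CPM under hypoxia and 37.48, 43.68 and 36.68 CPM in air, which overlap. The SIP hits were near the floor of 3 reads, and Ehym_DN132169_c0_g1 had 0.6802, 1.058 and 0.2521 CPM under hypoxia and 0.8259, 0.6634 and 0.3607 CPM in air.

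In *P. vittata*, 20 of 28 transcripts had a log2FC above 0, with a median of 0.27. The median of all its features was near 0, and 50.6% of the 31107 features with a mean of at least 5 CPM lay above 0. Some of the 28 transcripts share a Trinity gene, such as 5 from TRINITY_DN29119_c0_g1, so they are not independent. Libraries were separate for 12 transcripts that were higher and 2 that were lower, against 21.6% and 20.9% of all features. With an unadjusted p under 0.05, 4 transcripts were higher and 1 was lower, against 6.03% and 4.23%. The fern's largest fold change was that of a single isoform. TRINITY_DN29119_c0_g1_i2, a PIP1;4 hit, had 5.333 and 4.867 CPM under hypoxia and was at 0 in both air libraries. Against a floor of 3 reads per air library it was at least 34.0-fold higher, and the fitted log2FC of 2.61 is no bound (adjusted p = 0.184). The other transcripts of the same Trinity gene held far more reads, and the gene as a whole had 283.7 and 328.6 CPM under hypoxia and 332.8 and 287.8 CPM in air (log2FC -0.02 ± 0.15). The isoform's values therefore differ while the gene's sum overlaps, and pseudo-alignment can shift reads between transcripts of a gene. A sixth transcript of this gene, whose best hit AT4G23400 has no description in the tables, is included in that sum and not among the members. Fern transcripts with such hits are missing from the subfamily counts and sums, whatever their subfamily.

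The TIP3;2 hits of *P. vittata* are 3 transcripts of 1 Trinity gene. TRINITY_DN27692_c0_g1_i3 had 13.26 and 11.13 CPM under hypoxia, against 6.008 and 4.494 CPM in air (log2FC 1.08 ± 0.23, adjusted p = 0.292). TRINITY_DN27692_c0_g1_i1 had 12.58 and 25.26 CPM under hypoxia, against 12.26 and 2.736 CPM in air (log2FC 1.42 ± 0.67, adjusted p = 0.553), and leaving out air replicate 3 gave a log2FC of 0.51 and leaving out air replicate 1 one of 2.34. Summed over the gene, the values were 31.29 and 45.22 CPM under hypoxia, against 23.67 and 9.538 CPM in air, without overlap (log2FC 1.26 ± 0.37, adjusted p = 0.193 over Trinity genes). Air replicate 3 had the lowest value in each case. With the TIP1;2 hit TRINITY_DN23273_c0_g1_i1, at 18.1 and 20.13 CPM under hypoxia and 21.48 and 6.512 CPM in air, the TIP sum was 49.39 and 65.34 CPM against 45.15 and 16.05 CPM in air. The log2 ratio of these means was 0.91 with both air libraries, 0.35 without air replicate 3 and 1.84 without air replicate 1.

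**Figure D5:**
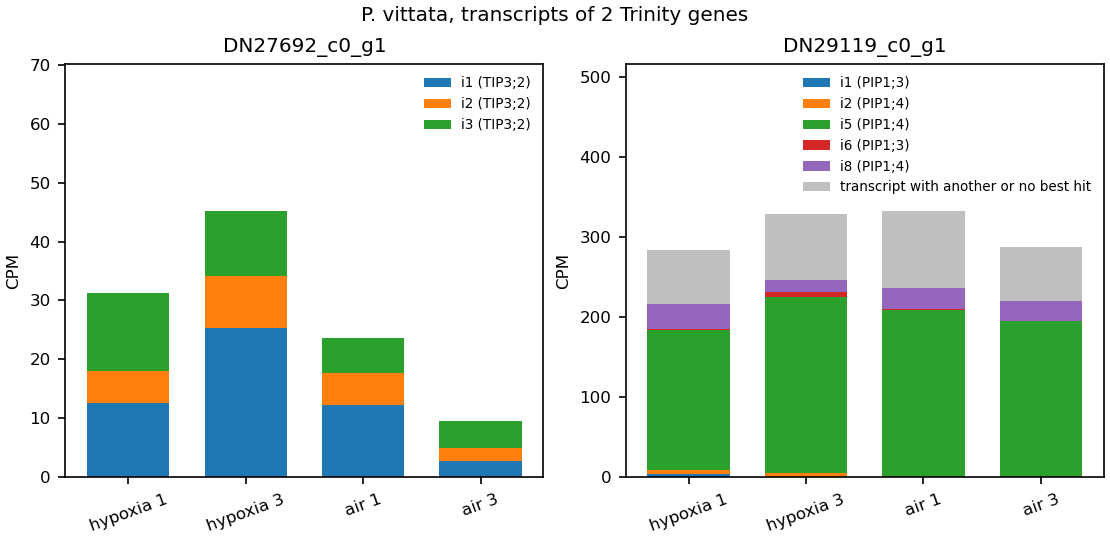
CPM of the transcripts of 2 *P. vittata* Trinity genes in each library, stacked, with the hypoxia libraries left of the air libraries. In DN27692_c0_g1 (left) the stacks are higher under hypoxia, and in DN29119_c0_g1 (right) isoform i2 is seen only under hypoxia as a thin band while the whole stacks overlap.

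The *P. vittata* PIP with the most reads, TRINITY_DN32741_c0_g3_i1, a PIP2;7 hit, had 620.8 and 640 CPM under hypoxia and 603.8 and 594.3 CPM in air (log2FC 0.07 ± 0.11, 95% interval -0.215 to 0.362). The libraries were separate, by a difference of less than 0.1 log2 units. Another PIP2;7 hit, TRINITY_DN24327_c0_g1_i1, went the other way, with 19.28 and 17.74 CPM under hypoxia against 30.95 and 24.37 CPM in air (log2FC -0.55 ± 0.18, adjusted p = 0.432). The NIP5;1 hit with the most reads, TRINITY_DN36216_c0_g1_i1, had 46.92 and 50.95 CPM under hypoxia and 49.28 and 51.73 CPM in air (log2FC -0.05 ± 0.135). TRINITY_DN32968_c0_g1_i2 and TRINITY_DN32968_c0_g1_i5, also NIP5;1 hits, overlapped between conditions. The first had 7.495 and 7.679 CPM under hypoxia and 7.096 and 8.404 CPM in air, and the second 15.79 and 8.1 CPM under hypoxia and 12.58 and 7.013 CPM in air. The SIP TRINITY_DN21906_c0_g1_i2 had 4.643 and 4.317 CPM under hypoxia, against 3.425 and 3.477 CPM in air (log2FC 0.30 ± 0.22, adjusted p = 0.692). For 3 NIP members the best hit is weak, with E-values of 4.4 (TRINITY_DN152_c0_g1_i1), 0.24 (TRINITY_DN38919_c0_g1_i1) and 0.024 (TRINITY_DN36216_c0_g1_i2). The last of these had 8.106 and 8.34 CPM under hypoxia, against 9.139 and 10.35 CPM in air.

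Genes that work beside aquaporins were set next to them. The plasma membrane proton pumps of the AHA family, which set the pH on both sides of the membrane, had 0 called features in each species, of 19 in the liverwort, 7 in the moss, 2 in the lycophyte, 15 in the horsetail and 36 in the fern. Their median log2FC lay between -0.24 in the horsetail and -0.09 in the fern. By limma at an unadjusted p under 0.05, 4 of the 19 liverwort AHA features were higher and 5 lower, where 15.4% and 15.8% of all features were. In the moss, 1 of 7 was higher and 1 lower, where 5.45% and 5.46% of all features were, and in the fern 1 of 36 was higher, where 6.03% of all features were. The lycophyte and the horsetail had 0 in either direction. The borate exporters of the BOR family, which act with NIP5;1 in boron uptake in *A. thaliana*, had 0 called features of 2, 3, 4, 21 and 18 in the same order of species. By the same unadjusted threshold, 5 of the 21 horsetail BOR features were lower and 0 higher, where 5.99% and 6.71% of all features were. In the liverwort 1 of 2 was lower (15.8% of all features), in the moss 1 of 3 was higher (5.45%) and 1 lower (5.46%), and in the fern 1 of 18 was higher (6.03%). The syntaxin SYP61, which acts in the delivery of PIPs to the plasma membrane of *A. thaliana*, was the best hit of 12 features, of which 0 were called.

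L-lactate dehydrogenase, the enzyme that makes the lactate some NIPs export, moved more than any aquaporin gene of *E. hyemale*. Both of its *E. hyemale* features passed the test and rose. Ehym_DN108749_c0_g1 had 17.08, 23.95 and 33.04 CPM under hypoxia, against 4.85, 6.453 and 4.09 CPM in air (log2FC 2.04 ± 0.245, adjusted p = 0.0016). Ehym_DN108749_c0_g2 had 24.74, 33.36 and 42.72 CPM under hypoxia, against 8.439, 10.79 and 9.007 CPM in air (log2FC 1.71 ± 0.20, adjusted p = 0.00144). In the fern, where 0% of all features were called, neither hit was called, although both had larger fitted changes than the horsetail genes. TRINITY_DN31452_c0_g1_i1 had 224.7 and 153.1 CPM under hypoxia, against 51.59 and 15.3 CPM in air (log2FC 2.67 ± 0.573, adjusted p = 0.298). TRINITY_DN31452_c0_g2_i1 had 395.9 and 294.5 CPM under hypoxia, against 96 and 30.63 CPM in air (log2FC 2.63 ± 0.539, adjusted p = 0.291). Every hypoxia library was thus above every air library in both transcripts. The moss locus Pp3c21_11360 was separate as well, at 259.2 and 212.9 CPM under hypoxia against 143.1 and 160 CPM in air (log2FC 0.63 ± 0.127, adjusted p = 0.13). None of the liverwort, moss and lycophyte hits was called. The difference between species was not tested.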

How the data were processed

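Expression was measured in 22 mRNA libraries of 5 species. Per the labels and the study's methods, the authors used kallisto for pseudo-alignment, with published transcript sets as targets or de novo Trinity assemblies in the horsetail and the fern, removed loci without more than 20 reads in any library and scaled by TMM in edgeR. Tool versions and builds are not given in the sources used here. The deposited values are log2 CPM, and in *E. hyemale* a 0 is an error text, so that the deposited unit of these columns was recorded as other. The authors' fold changes and FDRs were not used. Powers of 2 gave CPM. *E. hyemale* values were assigned to identifiers in sorted order, which raised the correlation with the deposited average log2 CPM to 0.9997, against 0.0103 as deposited. Between 42.9 and 81.1% of low values were whole reads within 0.1 read, so no count model was used.

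Each species was fitted in limma 3.58.1 (R 4.3.3) on log2(CPM + 1) with a variance trend and tested on simulated data. The SE and 95% intervals are limma's. P-values set the difference between conditions against the spread between libraries, with variances moderated toward a trend over all features. One *S. moellendorffii* air column has a number that no label has and was used without it. Members and gene lists were chosen with earlier results of these data known. The members named were, beside any called, those with the most reads per species and subfamily, the 3 largest increases and decreases among members of at least 1 CPM without overlap, and NIP5;1 hits. Other members, locus 27726 and the lactate dehydrogenases were named outside this rule, after their values were seen. Alternatives were pseudocounts of 0.1 and 5 CPM, a filter at 1 CPM, the variance prior, array weights, scaling, thresholds, left-out libraries, a replicate block, further descriptions and summed transcripts. No reference sequence was used. Python 3.11.15 and pandas 2.3.3 served for table work, and plots were drawn with matplotlib 3.10.9.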

Additional observations from a re-analysis of the deposited data

Results flagged for a closer look

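Summed levels of a subfamily moved in opposite directions, with no overlap between conditions, in some pairs of species. These differences between species were not tested, since each table was normalized by itself. Separate libraries also occurred among single features, at 30.1% higher and 30.4% lower in the liverwort and 20.5% and 20.9% in the moss. The shares were 26.0% and 23.5% in the lycophyte, 9.66% and 9.38% in the horsetail, and 21.6% and 20.9% in the fern. Gaps could be small, as in the moss PIP sums, with up to 3864 CPM under hypoxia and at least 3945 CPM in air. The lycophyte PIP sums, up to 3307 CPM under hypoxia and at least 3338 CPM in air, leave out the PIP2;3 hit 27726. With that locus added (168.2 and 126.9 CPM under hypoxia, 69.79 and 90.2 CPM in air), they overlap. The horsetail and fern PIP sums stay separate with their PIP2;3 hits added. Fern sums also lack hits that no table describes. The log2 ratio of the mean PIP sums was 0.29 in *E. hyemale* and 0.11 in *P. vittata*, and for the liverwort it was -0.17, for the moss -0.12 and for the lycophyte -0.13. Leaving out 1 library kept these signs but moved 3 of the ratios by over 1.5 times. The moss ratio was -0.205 without hypoxia replicate 1 and -0.04 without hypoxia replicate 3, the lycophyte ratio was -0.23 without hypoxia replicate 3 and -0.04 without hypoxia replicate 1, and leaving out air replicate 1 of the fern gave 0.18 and leaving out its air replicate 3 gave 0.05. With all libraries, *E. hyemale* thus exceeded these 3 species by 0.46, 0.41 and 0.42 log2 units, and *P. vittata* exceeded them by 0.28, 0.23 and 0.24. For the TIP sums, the ratio was 0.91 in *P. vittata* and -0.35 in *M. polymorpha*, a difference of 1.26, and leaving out air replicate 3 of *P. vittata* gave 0.35 there, leaving out its air replicate 1 gave 1.84. For the SIPs it was 0.38 in *P. vittata*, from 1 transcript of under 5 CPM, and -0.21 in *P. patens* and -0.26 in *S. moellendorffii*, differences of 0.59 and 0.64.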

How the results depend on the processing

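The count of called aquaporins was 0 under each of the 82 alternatives run over the 5 species, including an adjusted p under 0.05 with the same minimum change, no minimum change, array weights and each left-out library. In the lycophyte and the fern the main test called 0% of all features, so a 0 there says little about aquaporins. With the replicate block, 0 members were called in *M. polymorpha*, *E. hyemale* and *P. vittata*. The correlation of same-numbered libraries was 0.03 in *M. polymorpha*, 0.06 in *P. vittata* and between -0.28 and -0.08 in *E. hyemale*. These values, from libraries centred within each condition, cannot show whether same-numbered samples were handled as pairs. No paired fit was run in *P. patens* and *S. moellendorffii*, whose columns share 1 number. Of the log2FCs of named members, 561 alternative values kept their sign and 20 did not. With array weights, Ehym_DN110451_c0_g2 was at 0.005 and Ehym_DN104695_c0_g1 at 0.011, and with a pseudocount of 0.1 CPM Ehym_DN132169_c0_g1 was at -0.011. Leaving out 1 library gave ranges across 0 for 13 members. These were -0.005 to 0.295 for Mapoly0119s0015.1, -0.230 to 0.024 for Pp3c13_23650, -0.540 to 0.185 for Pp3c15_12660, -0.099 to 0.191 for Pp3c23_15870, -0.144 to 0.001 for 270916, -0.216 to 0.070 for 165030, -0.065 to 0.027 for Ehym_DN110451_c0_g2, -0.146 to 0.212 for Ehym_DN132169_c0_g1, -0.078 to 0.113 for Ehym_DN104695_c0_g1, -0.162 to 1.419 for TRINITY_DN23273_c0_g1_i1, -0.131 to 0.085 for TRINITY_DN32968_c0_g1_i2, -0.197 to 0.687 for TRINITY_DN32968_c0_g1_i5 and -0.104 to 0.013 for TRINITY_DN36216_c0_g1_i1. Of the alternative log2 ratios of summed CPM, 123 moved by less than the replicate spread and 5 by more. These 5 were the *M. polymorpha* NIP at -0.414 and the *P. patens* PIP sum at -0.205, both without hypoxia replicate 1, the *S. moellendorffii* NIP sum at 0.030 without the unnumbered air library, the *P. vittata* TIP sum at 1.838 without air replicate 1 and its NIP sum at -0.081 with library totals. Named members that kept their sign but moved by over 1.5 times included Mapoly0005s0188.1 (-0.480 to -0.171), Mapoly0008s0101.1 (-0.401 to -0.099), Mapoly0151s0013.1 (-0.671 to -0.124), Pp3c20_15350 (0.084 to 0.414), Pp3c21_9770 (-0.422 to -0.129), 105221 (-0.763 to -0.177) and 99369 (0.130 to 0.440). A lone library left in a condition is assumed to vary like the others. At the lowest depth 3 reads are 0.185 CPM, and members near that level are not resolved. With 2 libraries per condition, a change that was not called is not shown to be absent.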
